A study of Mus musculus with 6 samples.

Results

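The 9 genes Dpp4, Pi16, Anxa3, Cd55, Sema3c, Creb5, Ly6a, Ly6c1 and Cd34, taken by gene name from the 55291 genes of the deposited tables, were compared between the dorsal skin of tight skin (TSK) and wild-type (WT) mice. They are known from the fibroblast progenitors of fascia and other connective tissue, and they were chosen by name with their CPM and fold changes between TSK and WT in these same libraries in view, so their levels in TSK and WT and their ratios to Pdgfra are a description. No p is given for a member, and counts of members past a threshold are set beside the share of all genes past it and support nothing. Whole skin was taken from the shaved backs of 3 TSK mice and 3 WT littermates, all C57BL/6, and 1 bulk RNA library was sequenced per mouse. The labels give an age of 6 to 8 weeks and the sex female, while the methods of the study describe males. Transcripts of the Y-linked genes Ddx3y, Eif2s3y, Kdm5d and Uty were found in each of the 6 libraries, at 27.0 to 72.8 CPM (counts scaled to 1000000 per library), with Xist at 2.57 to 4.58 CPM. TSK mice carry a duplication within Fbn1, the gene of the microfibril protein fibrillin 1, in every cell of the animal, and the line was kept by backcrossing to C57BL/6. No library was made from isolated fibroblasts.

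Fascia is the loose connective tissue beneath the dermis and the skin muscle. Fibroblasts of fascia, of the outer layer of vessels and of the septa of fat include a population known as universal or interstitial progenitors, which carries DPP4 and PI16 on the cell surface or in its surroundings. These cells are known as precursors of committed preadipocytes and of other fibroblast states, and in the skin as a source of scar-forming cells. Their genes fall into different roles. Dpp4 encodes a surface peptidase that cuts dipeptides from chemokines and incretins, and Pi16 encodes a peptidase inhibitor of the CAP family. Cd55 and Sema3c encode a brake on complement and a secreted guidance ligand, Creb5 encodes a transcription factor that binds cyclic AMP response elements, and Anxa3 encodes a calcium-dependent membrane-binding annexin. Ly6a, which encodes the surface protein Sca-1, Ly6c1 and Cd34 are markers of mesenchymal progenitors that endothelial cells also express.

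The promoters of 4 members are shown because these are the Dpp4 and Pi16 genes that give the progenitors their name and the Cd55 and Sema3c genes, whose levels differed least between the groups. The sequences are those of RefSeq on GRCm38.p6, the build that mm10 denotes, and run 5′ to 3′ along the strand of the gene from 250 bases before the start to 50 bases after it. Capitals mark matches to any of 4 motifs, each searched on both strands. They are TATAAA, the core of the TATA box, and GGGCGG, known as the GC box, as well as TGANTCA, which AP-1 factors bind, and TGACGTCA, the cyclic AMP response element. Adjoining GC boxes may overlap.
Dpp4, chr2:62412182-62412481, minus strand: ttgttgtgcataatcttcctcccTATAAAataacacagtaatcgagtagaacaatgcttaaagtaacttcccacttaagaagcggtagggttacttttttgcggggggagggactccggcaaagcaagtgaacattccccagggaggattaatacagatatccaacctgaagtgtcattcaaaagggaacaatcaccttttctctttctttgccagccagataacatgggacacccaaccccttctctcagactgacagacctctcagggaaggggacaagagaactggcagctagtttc
Pi16, chr17:29318632-29318931, plus strand: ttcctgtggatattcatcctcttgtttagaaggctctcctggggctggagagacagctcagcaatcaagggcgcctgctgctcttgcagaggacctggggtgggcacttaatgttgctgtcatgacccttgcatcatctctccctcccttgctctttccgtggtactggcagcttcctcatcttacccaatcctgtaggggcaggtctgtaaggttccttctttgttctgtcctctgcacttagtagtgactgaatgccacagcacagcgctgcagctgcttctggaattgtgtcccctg
Cd55, chr1:130462695-130462994, minus strand: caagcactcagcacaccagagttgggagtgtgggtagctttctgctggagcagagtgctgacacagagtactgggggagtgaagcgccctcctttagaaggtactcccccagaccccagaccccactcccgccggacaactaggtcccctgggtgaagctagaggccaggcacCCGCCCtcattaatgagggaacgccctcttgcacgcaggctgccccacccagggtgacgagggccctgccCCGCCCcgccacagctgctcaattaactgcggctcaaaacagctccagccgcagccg
Sema3c, chr5:17574566-17574865, plus strand: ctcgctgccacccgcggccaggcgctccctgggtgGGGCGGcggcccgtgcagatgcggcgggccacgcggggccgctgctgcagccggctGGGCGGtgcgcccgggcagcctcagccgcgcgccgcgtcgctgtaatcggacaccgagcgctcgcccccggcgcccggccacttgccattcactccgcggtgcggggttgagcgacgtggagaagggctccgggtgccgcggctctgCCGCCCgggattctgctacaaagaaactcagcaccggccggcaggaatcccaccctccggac
The Dpp4 window held 1 TATAAA, whose first base lay 227 bases before the start, and the Pi16 window held none of the 4 motifs. Cd55 held 2 GC boxes and Sema3c 3. The RefSeq starts of Pi16 and Sema3c lie inside the gene spans of the annotation used for the counts, which begin at 29317680 and 17574281, so other starts of these genes are outside the windows.

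A RefSeq promoter was found for 7 of the 9 members, in 9 windows, since Creb5 and Ly6c1 each had 2. Anxa3 and Ly6a were without an entry. The windows of Dpp4 and Pi16 held few CpG dinucleotides, 4 and 3, where the median of all 32817 promoters was 7. Cd55 held 12 and Sema3c 42. GC content was 45.3% for Dpp4, 53.3% for Pi16, 63.3% for Cd55 and 75.7% for Sema3c, against a median of 52.7%. The remaining windows were mixed. The upstream window of Creb5 held 31 CpG, 5 GC boxes and 1 TGACGTCA, the motif that its own protein family binds, and its second window held 4 CpG and 1 TGANTCA. Cd34 held 7 CpG and the Ly6c1 windows 1 and 0, with 1 TATAAA in the former. Over all promoters TATAAA was found in 13.6%, the GC box in 35.6%, TGANTCA in 7.81% and TGACGTCA in 1.79%. These matches describe the letters only, and binding was not measured.

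Depth was similar in all libraries, with 17561453 to 19219814 counts. Fbn1, the gene with the duplication, was at 272 ± 14.2 CPM in WT and 1943 ± 377 CPM in TSK (SD, n = 3), with no overlap. These values are for the whole gene. The duplicated exons were not looked at, so the labelled genotype was not checked. In the makeup of the tissue, the summed CPM of 7 adult skeletal muscle markers was 134187 to 193247 in WT and 117465 to 132169 in TSK, and that of 10 genes of fibroblasts in general was 6943 to 10369 in WT and 21623 to 49169 in TSK, highest in TSK 3. Most of the latter sum came from the collagen genes Col1a1 (mean 3025 CPM in WT and 13347 CPM in TSK), Col1a2 (1736 and 6321 CPM) and Col3a1 (3207 and 9436 CPM), while Pdgfra had means of 41.8 and 74.8 CPM and Lum of 29.7 and 46.9 CPM. Of the skin markers checked, those of keratinocytes summed to 2818 to 5557 CPM in WT and 3133 to 5534 CPM in TSK. In bulk tissue, fewer cells of a type and less RNA per cell cannot be told apart, and the same holds for more of either.

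All 9 members passed the filter on low counts. Dpp4, the gene of the peptidase, is carried by chromosome 2 (62330073 to 62412231, minus strand). It was measured at 7.01, 7.13 and 6.32 CPM in WT 1 to 3, and at 31.2, 42.8 and 54.3 CPM in TSK 1 to 3. The lowest TSK library was well above the highest WT library, and the WT libraries lay within 1 CPM of each other. The means were 6.82 ± 0.436 and 42.8 ± 11.6 CPM (SD, n = 3), a ratio of 6.27. With TMM, a scaling that lets a few abundant genes weigh less, the log2 fold change (TSK minus WT) was 2.36 (SE 0.20). None of the 50-base stretches of Dpp4 transcripts occurred in another gene on the same strand.

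Pi16 (chromosome 17, 29317680 to 29330593, plus strand) had the greatest fold change of the 9. It was at 13.7, 21.6 and 13.1 CPM in WT 1 to 3, and at 95.9, 146 and 294 CPM in TSK 1 to 3. The groups did not overlap, but the TSK libraries differed among themselves, and TSK 3 was about 2 times as high as TSK 2. The means were 16.2 ± 4.75 and 178 ± 103 CPM, a ratio of 11.04, and the log2 fold change was 3.14 (SE 0.43). Without TSK 3 it was 2.61. The SE of Pi16 was the widest among the members.

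Anxa3, the annexin gene (chromosome 5, 96793339 to 96845966, plus strand), was at 15.9, 10.4 and 9.27 CPM in WT 1 to 3, and at 48.2, 57.5 and 68.5 CPM in TSK 1 to 3. Its groups did not overlap. WT 1 was the highest WT library, unlike in Pi16, where it was WT 2. The means were 11.9 ± 3.53 and 58.1 ± 10.1 CPM, a ratio of 4.89, and the log2 fold change was 2.03 (SE 0.18).

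**Figure D1:**
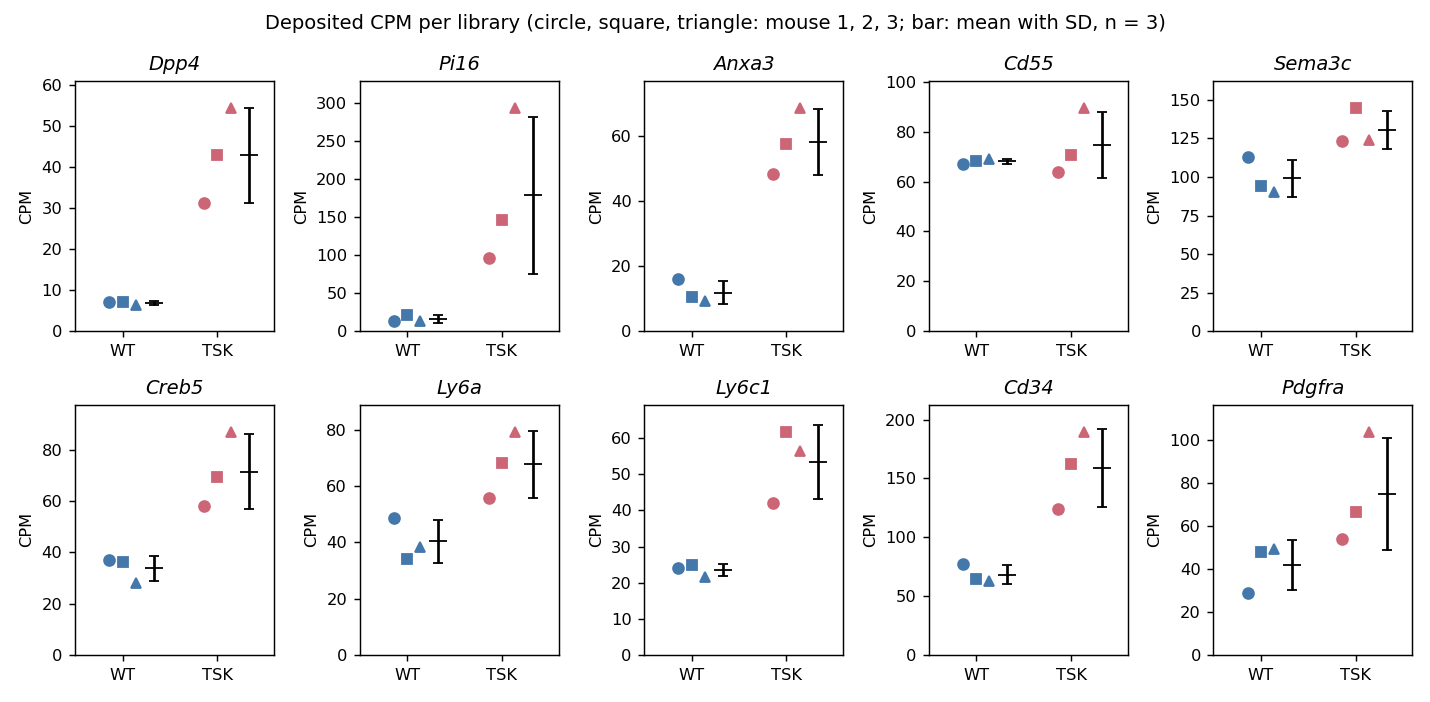
Deposited CPM of the 9 members and Pdgfra in each library, on linear axes from 0, with WT in blue and TSK in red. Points are mice and the black marks are the mean with its SD (n = 3). For Dpp4, Pi16 and Anxa3 the TSK libraries are far above the WT libraries, whereas those of Cd55 overlap, with means of 68.1 and 74.6 CPM.

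Creb5, the transcription factor gene (chromosome 6, 53287270 to 53700376, plus strand), differed less. It was at 36.8, 36.4 and 28.2 CPM in WT 1 to 3, and at 57.9, 69.5 and 87.1 CPM in TSK 1 to 3, with no overlap. The log2 fold change was 0.79 (SE 0.17). It was past an edgeR adjusted p of 0.05 with all libraries and not when any of the 6 was left out.

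The 3 genes shared with endothelial cells were also higher in each TSK library than in any WT library. Cd34, the sialomucin gene (chromosome 1, 194938819 to 194961279, plus strand), was at 77.2, 64.6 and 62.6 CPM in WT 1 to 3, and at 124, 162 and 190 CPM in TSK 1 to 3 (log2 fold change 0.94, SE 0.16). Ly6c1 (chromosome 15, 75044018 to 75048830, minus strand) was at 24.1, 24.8 and 21.5 CPM in WT and at 42.0, 61.8 and 56.4 CPM in TSK (0.90, SE 0.16). Ly6a (chromosome 15, 74994877 to 74998031, minus strand) was at 48.7, 33.9 and 38.4 CPM in WT and at 55.7, 68.2 and 79.3 CPM in TSK (0.48, SE 0.14). The last is the narrowest gap of these 3 genes, between 48.7 CPM in WT 1 and 55.7 CPM in TSK 1. Ly6a and Ly6c1 are neighbours and near copies of other Ly6 genes. Of the 50-base stretches of Ly6c1 transcripts, 32.8% also occurred in another gene on the same strand (21.5% in Ly6c2 and 11.1% in Ly6a), and of those of Ly6a 19.0% did, so the sharing of reads between them is uncertain. Ly6c2 itself was at 3.92 ± 1.48 CPM in WT and 5.07 ± 0.991 CPM in TSK (SD, n = 3).

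Cd55 and Sema3c differed least. Cd55, the complement regulator gene (chromosome 1, 130439027 to 130462744, minus strand), was at 67.0, 68.3 and 69.1 CPM in WT 1 to 3, and at 63.8, 70.5 and 89.6 CPM in TSK 1 to 3. TSK 1 was below all WT libraries and TSK 2 and TSK 3 above them, so the groups overlapped, and the log2 fold change was -0.16 (SE 0.15). Its sign depends on the scaling, being 0.13 with library size only. Its near copy Cd55b holds 8% of its 50-base stretches and had too few counts to test. Sema3c (chromosome 5, 17574281 to 17730268, plus strand) was at 113, 94.4 and 90.1 CPM in WT 1 to 3, and at 123, 145 and 124 CPM in TSK 1 to 3. The groups were apart on the deposited CPM but overlapped after TMM scaling, at 102 to 115 CPM in WT and 110 to 130 CPM in TSK, and the log2 fold change was 0.12 (SE 0.13).

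Set together, 6 of the 9 members had an edgeR adjusted p below 0.05 and were higher in TSK (Dpp4, Pi16, Anxa3, Creb5, Ly6c1 and Cd34), and none was lower, also at an unadjusted p below 0.05. Among all 19971 genes tested, 2.71% were called higher and 0.681% lower. DESeq2 called 7 of the 9 higher, with Ly6a added, where it called 5.13% of all genes higher. At the thresholds of the study, an adjusted p below 0.01 and a fold above 2.5, edgeR called 2 members, Dpp4 and Anxa3, against 0.255% of all genes higher and 0.0351% lower. The study applied those thresholds with DESeq2, and its own list of genes was not compared here. DESeq2 run here on the deposited counts called 3 members at those thresholds, Dpp4, Pi16 and Anxa3. It called 1.4% of all genes higher and 0.309% lower. At an adjusted p below 0.05 DESeq2 called 1.85% of all genes lower. No member was called lower at any of these thresholds. In 8 of the 9 members every TSK library was above every WT library on the deposited CPM and in 7 after TMM scaling, as in 29.1% and 14.1% of all genes. Every TSK library was below every WT library in 2.58% of all genes on the deposited CPM and in 10.6% after TMM scaling, and in no member. The median log2 fold change was 0.90 over the members and -0.03 over all genes tested. With library size only these were 1.19 and 0.25.

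Which members were past that threshold depended on the libraries in the fit, which is given as description of the same contrast. Dpp4 and Anxa3 were called higher whichever library was left out, and Pi16 except without WT 3. Without WT 3, 0.218% of all genes were called higher, and without TSK 2, where Pi16 was called beside Dpp4 and Anxa3 alone, 1.57% were. Without 1 of the other 4 libraries the share was 1.09% to 3.47%. Cd34 was no longer called without WT 2, WT 3 or TSK 2, and Ly6c1 without WT 3, TSK 2 or TSK 3.

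The mice of a group also differed together. On the deposited CPM TSK 1 was the lowest TSK library for all 9 members, and TSK 3 the highest for 7, the exceptions being Sema3c and Ly6c1, which were highest in TSK 2. Over the 9 members the summed CPM was 642 in TSK 1, 823 in TSK 2 and 1042 in TSK 3, against 339 to 403 in WT. The summed CPM of the 10 fibroblast genes was highest in TSK 3 too, and of these genes all except Col1a1 and Col1a2 were lowest among the TSK libraries in TSK 1. The part of this in the members' levels was not tested.

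Per kilobase of annotated exon, the only scale on which genes can be compared, Ly6a stood highest in both groups, at 33.5 ± 6.28 CPM per kb in WT and 56.2 ± 9.82 in TSK (SD, n = 3). Below it in WT came Cd55, Ly6c1 and Sema3c, at 14.04, 13.99 and 13.89 CPM per kb with overlapping libraries, then Cd34 at 9.35, Anxa3 at 3.26 and Pi16 at 2.54, the latter pair overlapping. Creb5 at 1.35 and Dpp4 at 1.08 came last and overlapped. In TSK the order of these levels was another. Ly6c1 at 31.8, Pi16 at 28.0, Cd34 at 21.8, Sema3c at 18.3, Anxa3 at 15.9 and Cd55 at 15.4 CPM per kb followed Ly6a, and each overlapped the next, with Dpp4 at 6.77 and Creb5 at 2.86 apart from them and from each other. Pi16 thus stood below 6 members in WT and below 2 in TSK, and Dpp4 was the lowest in WT and above Creb5 in TSK. The annotated exons of Creb5 add up to 25021 bases, which lowers its level per kilobase where a shorter transcript is in use.

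To set the members against a gene of fibroblasts in general, each count was divided by that of Pdgfra, the gene of a growth factor receptor that marks fibroblasts. Such a ratio is free of the scaling of the library. Pdgfra was at 28.5, 47.6 and 49.3 CPM in WT 1 to 3, and at 54.0, 66.6 and 104 CPM in TSK 1 to 3, with no overlap on this scale and overlap after TMM scaling (log2 fold change 0.52, SE 0.30, edgeR adjusted p = 0.388). WT 1 had the lowest value of all, so that WT 1 gave the highest ratio of the WT libraries for every member.

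Relative to Pdgfra, Pi16, Dpp4 and Anxa3 remained apart. The Pi16 count was 48.0%, 45.4% and 26.6% of that of Pdgfra in WT 1 to 3. In TSK 1 to 3 it was 177%, 219% and 283%. The Pi16 count was thus below the Pdgfra count in each WT library and above it in each TSK library. Counts are not corrected for exon length, so this does not rank the levels of these genes. The mean log2 ratio was -1.37 ± 0.47 in WT and 1.15 ± 0.34 in TSK (SD, n = 3), a difference of 2.52, or 5.74-fold. Dpp4 was at 24.5%, 14.99% and 12.8% of Pdgfra in WT and at 57.7%, 64.3% and 52.4% in TSK. Its log2 ratio went from -2.58 ± 0.49 to -0.79 ± 0.15, a difference of 1.79, or 3.45-fold. Anxa3 was at 55.7%, 21.9% and 18.8% in WT and at 89.3%, 86.3% and 66.0% in TSK, with a gap between WT 1 and TSK 3 that was narrow beside the others (difference 1.49, or 2.81-fold).

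**Figure D2:**
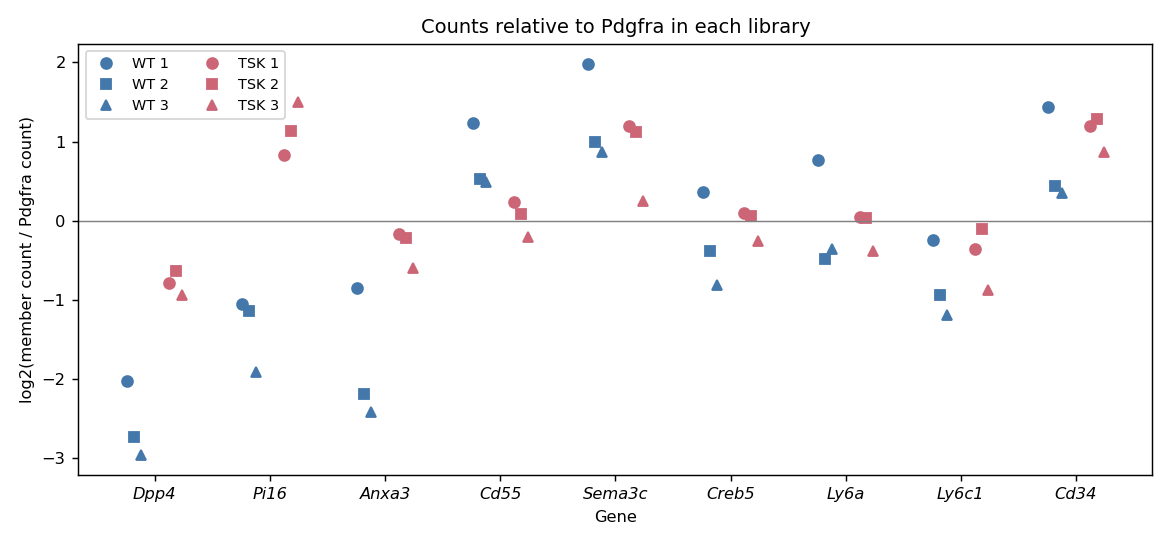
Log2 ratio of each member's count to the Pdgfra count in the 3 WT (blue) and 3 TSK (red) libraries, where 0 means equal counts. For Pi16, Dpp4 and Anxa3 every TSK point is above every WT point, for Cd55 every TSK point is below, and for the other 5 the groups overlap, with WT 1 the highest WT point throughout.

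For the other 6 members the ratio to Pdgfra differed less. Cd34, Ly6c1 and Creb5 differed by 0.38, 0.34 and 0.25 on the log2 scale, Ly6a by -0.08 and Sema3c by -0.43, and in each of these 5 the libraries of the groups overlapped. Cd55 was at 235%, 144% and 140% of Pdgfra in WT 1 to 3, and at 118%, 106% and 86.3% in TSK 1 to 3. All TSK libraries were below all WT libraries, and the difference was -0.71, or 0.611-fold. A ratio higher in every TSK library was found for 3 of the 9 members, where 1.42% of 19944 genes had one, and a ratio lower in every TSK library for 1 member, where 22.8% of genes had one. The median difference was 0.34 over the members and -0.57 over all genes. Without WT 1, the library with least Pdgfra, Creb5, Ly6c1 and Cd34 were apart too, which made 6 of 9, beside 8.04% of all genes. Without any other single library the 3 were Dpp4, Pi16 and Anxa3, beside 1.5% to 3.24% of all genes. The median difference over the members moved with single libraries, at 0.62 without WT 1, 0.23 without WT 2, 0.14 without WT 3 and 0.20 without TSK 2. With 1 library left out, the difference ran from -0.63 to -0.07 for Sema3c, from 0.14 to 0.62 for Ly6c1 and from 0.18 to 0.73 for Cd34, in each case lowest without WT 3 and highest without WT 1.

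Other denominators were tried, because the fibroblast genes did not differ by equal amounts. Of the 10 genes of that list, all had a log2 fold change above 0 and 1, Thy1, rose (0.72, edgeR adjusted p = 0.0437), with 8 higher at an unadjusted p below 0.05 and 7 called higher by DESeq2. The call of Thy1 was lost when any 1 of the 6 libraries was left out, and with limma-voom or upper quartile factors. Their log2 fold changes ran from 0.36 for Lum, a small proteoglycan, to 1.84 for Col1a1, a chain of collagen I. For Pi16 the log2 difference relative to Pdgfrb, Col1a1, Dcn and the geometric mean of the list was 2.07, 1.35, 2.22 and 2.13. For Dpp4 it was 1.34, 0.61, 1.49 and 1.399. For Anxa3 it was 1.04, 0.32, 1.19 and 1.10. These 3 genes were above 0 with each denominator, and Cd55, Sema3c and Ly6a were below 0 with each of them. The middle group, Creb5, Ly6c1 and Cd34, changed sign. Their differences were above 0 relative to Pdgfra and below 0 relative to Pdgfrb, Col1a1 and the list, while Creb5 alone of these was below 0 relative to Dcn.

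**Figure D3:**
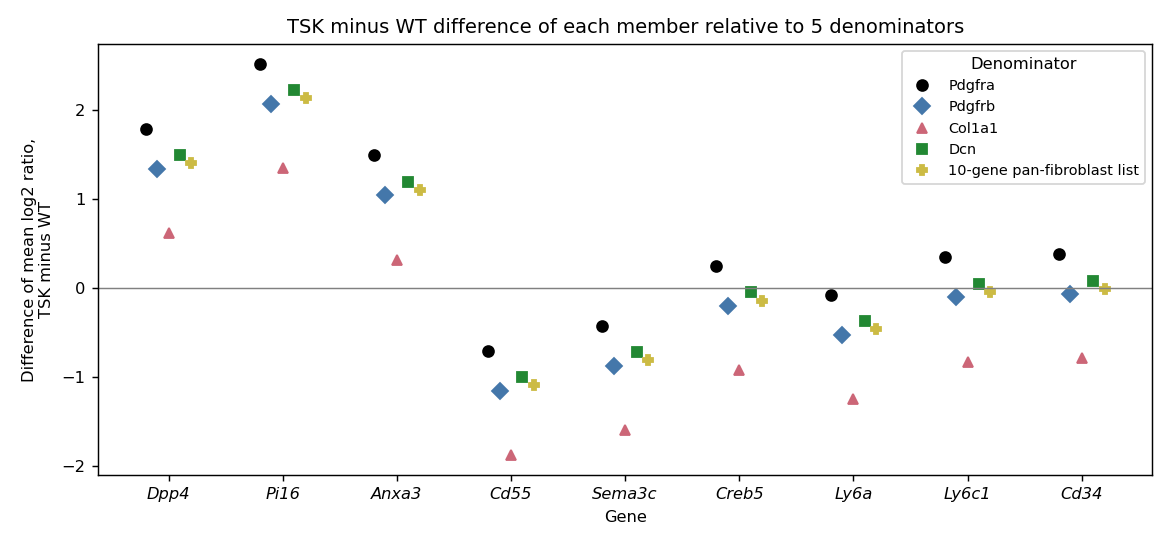
Difference between TSK and WT of the mean log2 ratio of each member to 5 denominators, with no test. Pi16, Dpp4 and Anxa3 lie above 0 with all 5, Col1a1 giving the lowest value for every member, and Creb5, Ly6c1 and Cd34 lie on both sides of 0.

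Alternatively, the fit across all genes was scaled so that Pdgfra was level between libraries. Then only Pi16 was called among the members, with 0.396% of all genes called higher. Scaled to the geometric mean of the fibroblast list, Dpp4, Pi16 and Anxa3 were called higher, with 0.961% of all genes, and Cd55 was called lower, with 53.6% of all genes.

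The pattern over the 6 libraries was compared between members by the root mean square (RMS) difference of their centred TMM log2 CPM values, in which a small value means a like pattern. Centred values keep the difference between genotypes. The members were chosen with that difference in view, so the distances largely repeat the fold changes and support nothing. Anxa3 was the nearest to Dpp4, at 0.268, followed by Pi16 at 0.488. Cd34, Ly6c1 and Creb5 were at 0.704, 0.730 and 0.770, Ly6a at 0.942, Sema3c at 1.13 and Cd55 at 1.25. The mean pattern of 10 endothelial markers was nearer than Dpp4 to Ly6c1 (0.230), Cd34 (0.342), Creb5 (0.346), Ly6a (0.400), Sema3c (0.401) and Cd55 (0.604), and farther than Dpp4 from Anxa3 (0.713) and Pi16 (1.29). The pattern of Pdgfra was nearer than Dpp4 to the same 6 genes, at 0.402 from Ly6c1, 0.416 from Cd34, 0.381 from Creb5, 0.425 from Ly6a, 0.5101 from Sema3c and 0.449 from Cd55, the last of which it was nearer to than the endothelial mean was. Of the endothelial markers, all 10 had a log2 fold change above 0 (median 0.78), 9 were higher at an unadjusted edgeR p below 0.05, DESeq2 called 4 higher, and 2 rose in edgeR, Tek, an angiopoietin receptor (1.29, adjusted p = 0.0202), and Vwf, the von Willebrand factor gene (0.99, adjusted p = 0.0187). Their summed CPM was 169 to 197 in WT and 299 to 496 in TSK, highest in TSK 2, which was also the highest library for Ly6c1 and Sema3c. The part of endothelial RNA in the values of Ly6a, Ly6c1 and Cd34 was not tested.

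Among 12008 genes with a mean of at least 5 CPM over all 6 libraries, the 5 most like Dpp4 over the 6 libraries were Scara3, a scavenger receptor family gene (RMS 0.098), Emilin2, a gene of the elastin-microfibril interface (0.112), Cd248, the stromal surface protein endosialin (0.120), Lrrn4cl (0.176) and Fbn1 (0.198). Scara3 was at 5.80 ± 0.776 CPM in WT and 37.7 ± 8.05 CPM in TSK. The 5 most like Pi16 were Sfrp2, which encodes a secreted modulator of Wnt signalling (0.226), Islr2 (0.276), Ildr2 (0.388), Fcna, the lectin ficolin A (0.398), and Pla1a, a phospholipase gene (0.399). Sfrp2 was at 4.05 ± 0.937 CPM in WT and 48.7 ± 18.9 CPM in TSK (SD, n = 3). The WT means of these 5 genes were 1.83 to 4.68 CPM, so that they met the minimum only through the TSK libraries. These likenesses describe 6 libraries that share a difference between genotypes.

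Of 18 further genes known from the same progenitors, all were tested, 10 rose and none fell, and 16 had a log2 fold change above 0 (median 1.66). None of the 18 was lower at an unadjusted p below 0.05 either, and DESeq2 called 14 higher and none lower. The list was written with earlier results of these data known, and the study names Mfap5 from the same mice, so it is not independent evidence of a direction. The matrix genes Mfap5, encoding a microfibril-associated protein, and Fn1, encoding fibronectin, rose by 2.61 and 1.76 on the log2 scale (adjusted p = 0.00327 and 0.0148). Mfap5 was at 11.8 ± 1.27 CPM in WT and 89.1 ± 23.0 CPM in TSK. Cd248 rose from 24.4 ± 0.477 to 135 ± 43.7 CPM (2.18, adjusted p = 0.00606). In Wnt signalling, the ligand gene Wnt2 rose from 1.14 ± 0.223 to 11.1 ± 6.69 CPM (2.99, adjusted p = 0.0148), and Dact2, a gene of an intracellular modulator, from 1.14 ± 0.417 to 23.8 ± 6.34 CPM (4.09, adjusted p = 0.00233). Smpd3, a sphingomyelinase gene, and Efhd1, a calcium-binding protein gene, both rose by 2.61. Opcml, Uchl1 and Stmn4, known also from neurons, rose by 1.28, 1.87 and 2.20. Stmn4 was low, at 0.498 ± 0.262 CPM in WT and 2.77 ± 0.380 CPM in TSK, with at most 60 counts in a library. Not past the test were Ackr3, a chemokine scavenger (0.76, adjusted p = 0.0522), Procr (1.33, adjusted p = 0.0616), Has1, a hyaluronan synthase (1.41, adjusted p = 0.0767), Il13ra1 (0.14), Tnfaip6 (-0.06) and Limch1 (-0.36), among others. Without WT 3, 5 of the 10 were still called (Cd248, Dact2, Efhd1, Mfap5 and Smpd3).

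**Figure D4:**
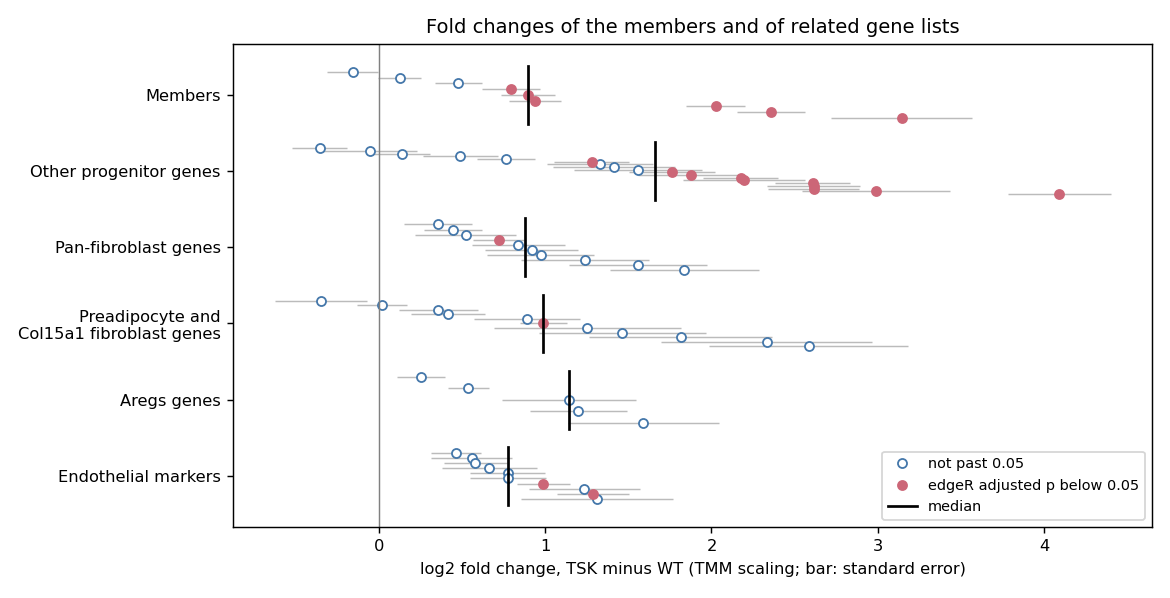
Log2 fold change (TSK minus WT, TMM scaling) with its standard error for each gene of 6 lists, where filled points have an edgeR adjusted p below 0.05 and the black line is the median of the list. The members spread from -0.16 to 3.14, the further progenitor genes from -0.36 to 4.09, and the 10 fibroblast genes from 0.36 to 1.84 with 1 filled point. The filled points of the members come from the contrast that chose them.

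Genes of the neighbouring fibroblast states were looked at in the same fit. Of 11 genes of committed preadipocytes and Col15a1 fibroblasts, 1 rose, Cxcl12, the gene of a chemokine that DPP4 is known to cut (from 48.2 ± 3.32 to 116 ± 19.0 CPM, log2 fold change 0.99, adjusted p = 0.0147), none fell, and the median log2 fold change was 0.99. At an unadjusted p below 0.05 edgeR had 6 of the 11 higher, and DESeq2 called 3. Icam1 was at 0.02 and Dlk1 at -0.35, whereas Aoc3, Fabp4 and Pparg were at 2.58, 2.33 and 1.81 with wide spreads. Adipocytes express these 3 genes too. The adipocyte markers summed to 83.2 to 126 CPM in WT and 334 to 1709 CPM in TSK, highest in TSK 2, and 3 of 6 rose (Plin1, Lep and Cfd). All 6 were higher at an unadjusted edgeR p below 0.05, DESeq2 called 6 higher and limma-voom 1. Their part in the list of preadipocyte genes was not tested. Of 5 genes of the adipogenesis-regulatory cells (Aregs), none passed in edgeR in either direction, while 4 were higher at an unadjusted p below 0.05 and DESeq2 called 3 higher. The nearest was F3, the gene of tissue factor (0.54, adjusted p = 0.0519), and the median was 1.14.

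The relatives of each member were examined too. Of 7 genes listed beside Dpp4 none passed in either direction in edgeR or DESeq2, 1 (Fap) was higher at an unadjusted edgeR p below 0.05, and the median log2 fold change was -0.14. Fap, the nearest relative and itself a fibroblast peptidase, was at 7.75 ± 2.12 CPM in WT and 16.6 ± 1.66 CPM in TSK (0.79, adjusted p = 0.135). Ada, also on this list, was at 0.868 ± 0.277 CPM in WT and 1.52 ± 0.480 CPM in TSK. Of 9 CAP family relatives of Pi16, 6 were tested and 2 rose, Crispld1 (1.77, adjusted p = 0.0148) and Pi15 (0.70, adjusted p = 0.0342). Of 11 annexins other than Anxa3, 9 were tested, and only Anxa9 rose (1.00, adjusted p = 0.0202), while the abundant Anxa2 was at -0.04 and the median was -0.04.

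Around Cd55, 7 of 9 complement and related genes were tested and 1 rose, C4b, a complement component (from 61.5 ± 11.1 to 304 ± 134 CPM, 2.03, adjusted p = 0.0123). The regulators held on the membrane, Cd46, Cd59a, Cd59b and Cr1l, were at -0.32 to -0.01 and did not pass, like Cd55 itself. Around Sema3c, 2 of 13 class 3 semaphorins and receptors rose, Sema3b (1.24, adjusted p = 0.0405) and Nrp2, a semaphorin receptor (0.77, adjusted p = 0.0202). DESeq2 called 6 of the 13 higher, and at an unadjusted p below 0.05 edgeR had 7 higher and 1 lower. Nrp1 was at 0.77 (adjusted p = 0.0844) and Plxnd1, a receptor of Sema3c signalling, at 0.39 (adjusted p = 0.0976). None of 8 CREB and ATF relatives of Creb5 passed in either direction in edgeR or DESeq2, with 1 higher at an unadjusted edgeR p below 0.05 and a median of -0.01. Neither of the 2 relatives of Cd34, Podxl (0.49) and Podxl2 (-0.34), passed by either tool or at an unadjusted p below 0.05. Of 11 further Ly6 genes 6 were tested, and Ly6g6c rose (1.04, adjusted p = 0.0202).

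Markers of other cells that can express members were at these levels. T cell markers, which go with Dpp4 in lymphocytes, summed to 10.5 to 15.9 CPM in WT and 15.8 to 18.6 CPM in TSK, and none of 6 passed in either direction. Hair follicle bulge markers, which go with Cd34, summed to 1066 to 2095 CPM in WT and 1284 to 1745 CPM in TSK, and none of 6 passed. Mast cell markers, which also go with Cd34, summed to 7.45 to 8.03 CPM in WT and 11.8 to 25.5 CPM in TSK, and none of the 5 tested passed. Macrophage markers summed to 162 to 292 CPM in WT and 312 to 832 CPM in TSK, highest in TSK 3, and none of 7 passed. Neutrophil markers, which go with Anxa3, summed to 6.60 to 11.6 CPM in WT and 5.17 to 8.69 CPM in TSK. Mesothelial markers, of cells that can come with fascia, summed to 1.51 to 3.70 CPM in WT and 1.35 to 5.49 CPM in TSK, with 1 of 4 tested. No marker of these 6 lists was at 0 in all libraries. At an unadjusted p below 0.05 edgeR had 5 mast cell and 4 macrophage markers higher, 1 neutrophil and 1 mesothelial marker lower, and none of the T cell and bulge markers in either direction. DESeq2 called 2 mast cell and 2 macrophage markers higher and 1 neutrophil marker lower, and none of the others. In the remaining lists 1 of 6 pericyte and smooth muscle markers rose (Myh11), as did 1 of 6 keratinocyte markers (Krtdap), and none of 5 Schwann cell and 7 skeletal muscle markers passed in edgeR, where DESeq2 called 1 muscle marker higher and 4 lower and no Schwann cell marker. At an unadjusted p below 0.05 edgeR had 3 Schwann cell markers and 1 muscle marker higher and 3 muscle markers lower. Their part in the members' values was not tested. Apart from the progenitor genes and Thy1, 15 relatives and markers are named here as risen. Without WT 3 none of the 15 was called, without WT 2 6 were, and without 1 of the other 4 libraries 11 to 13.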

How the data were processed

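Stranded, ribosome-depleted total RNA was sequenced by the authors as single-end reads of 50 bases, demultiplexed with bcl2fastq 2.19.1.403, aligned to mm10 with STAR and quantified in Partek Flow 11.0 (submitters' processing notes and methods). Whether counting used strand is not given in the sources used here. The authors deposited estimated counts per gene (43.3% to 45.4% of non-zero values whole within 0.001) and the CPM made from them. Estimated counts were rounded and tested with edgeR 4.0.16 (R 4.3.3): TMM, filterByExpr (19971 genes), quasi-likelihood test, two-sided, Benjamini-Hochberg over all genes. DESeq2 1.42.0 and limma 3.58.1 were alternatives.

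Groups came from the labels, with 3 mice each. Members and gene lists were chosen with earlier results of these data known. Named genes are the members, Pdgfra, Fbn1, genes of 24 lists, and the 5 genes most like Dpp4 and Pi16. Ratios to Pdgfra used unrounded counts, with no test. Coordinates are 1-based; 95.6% of genes had the start of GENCODE M21 and an end 1 base past it, so ends were reduced by 1 base. Exon lengths and shared 50-base stretches came from GENCODE M21 and promoters from RefSeq. No 2 libraries of a group agreed within counting noise, as copies of 1 library would (lowest chi-square per degree of freedom 8.02). Single-cell data were not used here. Some genes of the lists are not reported here.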

Additional observations from a re-analysis of the deposited data

How the results depend on the processing

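The number of members called higher (6) was 5 to 7 under all changes of tool, low-count filter and general scaling tried, while 2.17% (limma-voom) to 8.87% (limma-trend on log2(CPM + 1)) of all genes were, 8.44% with library size only. It was 1 when scaled to Pdgfra, 3 when scaled to the fibroblast list and 2 at the thresholds of the study, or 3 at those thresholds in DESeq2, which was added after seeing the data. With 1 library left out it was 2 to 5, lowest without WT 3. Members called lower (0) became 1 with the fibroblast list. Further progenitor genes called higher (10) were 14 with library size only, DESeq2, no low-count filter, or limma-trend on log2(CPM + 1) or log2(CPM + 0.1). The count was 4 scaled to Pdgfra and 7 scaled to the fibroblast list. It was 5 at the thresholds of the study and 5 to 11 with 1 library left out. Of these genes 2 were called lower with the fibroblast list. The count of fibroblast genes called higher (1) was the least settled: 8 with library size only, 8 with limma-trend on log2(CPM + 1) or log2(CPM + 0.1), 7 with DESeq2, 5 without a low-count filter, and 0 with upper quartile factors, limma-voom, scaling to Pdgfra or to that list, the thresholds of the study, or any library left out (0 to 0). The cause was not tested.

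The median log2 fold change of the members (0.90) was 1.19 with library size only, 1.14 and 1.17 with limma-trend at pseudocounts of 1 and 0.1, 0.30 scaled to Pdgfra and -0.042 scaled to the fibroblast list. Their median relative to Pdgfra (0.34) was -0.11 with Pdgfrb, -0.83 with Col1a1, 0.047 with Dcn and -0.045 with the list as denominator, and 0.14 (without WT 3) to 0.62 (without WT 1) with 1 library left out. Members with a ratio to Pdgfra higher in every TSK library (3) were 3 to 6 with 1 library left out, 6 without WT 1, and the member with a lower ratio was 1 throughout, where 23.1% to 45.9% of all genes had one (leaving out libraries here was chosen after seeing the data).

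Single log2 fold changes that changed sign were, for Cd55, 0.13 (library size only), 0.12 and 0.12 (limma-trend); scaled to Pdgfra, -0.46 for Sema3c and -0.18 for Ly6a; scaled to the list, -0.81 for Sema3c, -0.18 for Creb5, -0.52 for Ly6a, -0.037 for Ly6c1 and -0.042 for Cd34. Of the ratios, Creb5 was -0.21 with Pdgfrb, -0.93 with Col1a1, -0.052 with Dcn, -0.14 with the list and -0.021 to 0.57 with 1 library left out (below 0 without WT 3), Ly6c1 was -0.11, -0.83 and -0.045 and Cd34 -0.074, -0.80 and -0.012 with Pdgfrb, Col1a1 and the list, and Ly6a was -0.31 to 0.32 with 1 library left out (0.32 without WT 1 and 0.064 without TSK 3). The other values of single members kept their direction: 126 of the log2 fold changes also kept their side of the threshold, 21 lost and 5 gained the call, and of the ratios 75 moved by less and 11 by more than the SD between libraries.

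The replicate numbers in the labels were not treated as pairs, since same-numbered libraries deviated with correlations of 0.011, 0.167 and -0.094, and 1 of 3 WT libraries was most like its own number. With the number as a replicate block, 5 members were called (Creb5 was not) beside 3.33% of all genes, 13 further progenitor genes and 2 fibroblast genes. With 3 mice a group, an exact permutation test of a single value cannot go below p = 0.1.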
